A study of Homo sapiens with 4 samples.

Results

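The genes described here encode subunits of the MYST acetyltransferase complexes, a family that includes those built on BRPF3. They are BRPF3, BRPF1, BRD1 and JADE1 among the scaffolds, KAT6A, KAT6B and KAT7 among the catalytic subunits, and ING4, ING5 and MEAF6 among the small subunits. A gene was given every BRPF3 peak that overlapped the 5 kb to either side of its start site in the human genome build hg19. Of the 10 genes, 9 had such a peak in at least 1 list, and each of the 9 held a single merged region, out of 14039 merged regions in the whole series. The peaks numbered 9 of 13431 in HU cells, 8 of 11532 in mimosine cells and 10 of 13160 in asynchronous cells.

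BRPF3 was mapped by chromatin immunoprecipitation and sequencing in RKO, an established human colon carcinoma line, with a homemade rabbit antibody. HU cells had spent 22 h in 0.5 mM mimosine, a plant amino acid used to hold cells near the beginning of S phase, then 3 h after its removal, and then 1 h and 30 min in 3 mM hydroxyurea, which depletes nucleotides. Mimosine cells had received only the 22 h in 0.5 mM mimosine, and asynchronous cells grew without treatment. All lists were set against 1 rabbit IgG library from cells treated like the HU cells, so no IgG control matched the mimosine or asynchronous cells. Each condition had 1 BRPF3 library, so values are placed side by side without a test, and no difference between conditions could be checked against replicates. A description label of the BRPF3 libraries names BRPF1/2, whereas their titles and antibody label name BRPF3. In the RefSeq gene table both BRPF1 and BRPF2 are listed as synonyms of BRD1, and BRPF1 is also the name of a separate gene. Whether the antibody also bound BRPF1 or BRD1 was not tested.

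In these complexes a scaffold holds the catalytic MYST subunit together with an ING protein and MEAF6. BRPF1, BRD1 and BRPF3 are paralogous scaffolds that carry PHD fingers, a bromodomain and a PWWP domain, modules that read histone marks. KAT6A (also MOZ), KAT6B (also MORF) and KAT7 (also HBO1) transfer the acetyl group, and KAT7 works with either a BRPF or a JADE scaffold, a choice known to set which histone tail is acetylated. BRPF3 is best known as a partner of KAT7, a complex linked to replication origins.

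The genes split into those with a peak in every list, those without one under mimosine, and 1 with none. BRPF1, BRD1, BRPF3, JADE1, KAT6A and MEAF6, 6 of the 10, had peaks in HU, mimosine and asynchronous cells. ING4, ING5 and KAT6B had peaks in HU and asynchronous cells and none in mimosine cells. KAT7 had no peak in any list. Thus all 4 scaffold genes, 1 of the 3 catalytic genes, 0 of the 2 ING genes and MEAF6 were held in all 3 conditions. For comparison, 5.48% of all positions between the first and last peak of each chromosome lay within 5 kb of an HU peak, 4.08% within 5 kb of a mimosine peak and 5.26% within 5 kb of an asynchronous peak. These shares count all positions and not gene starts, for which no annotation of this build was used, so they do not show whether the 9 genes stand apart from other genes. Over all merged regions, 71.5% held peaks of all 3 lists and 14.7% held HU and asynchronous peaks without a mimosine peak. Among the 9 regions at these genes the numbers were 6 and 3, too few to set apart from those shares.

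**Figure D1:**
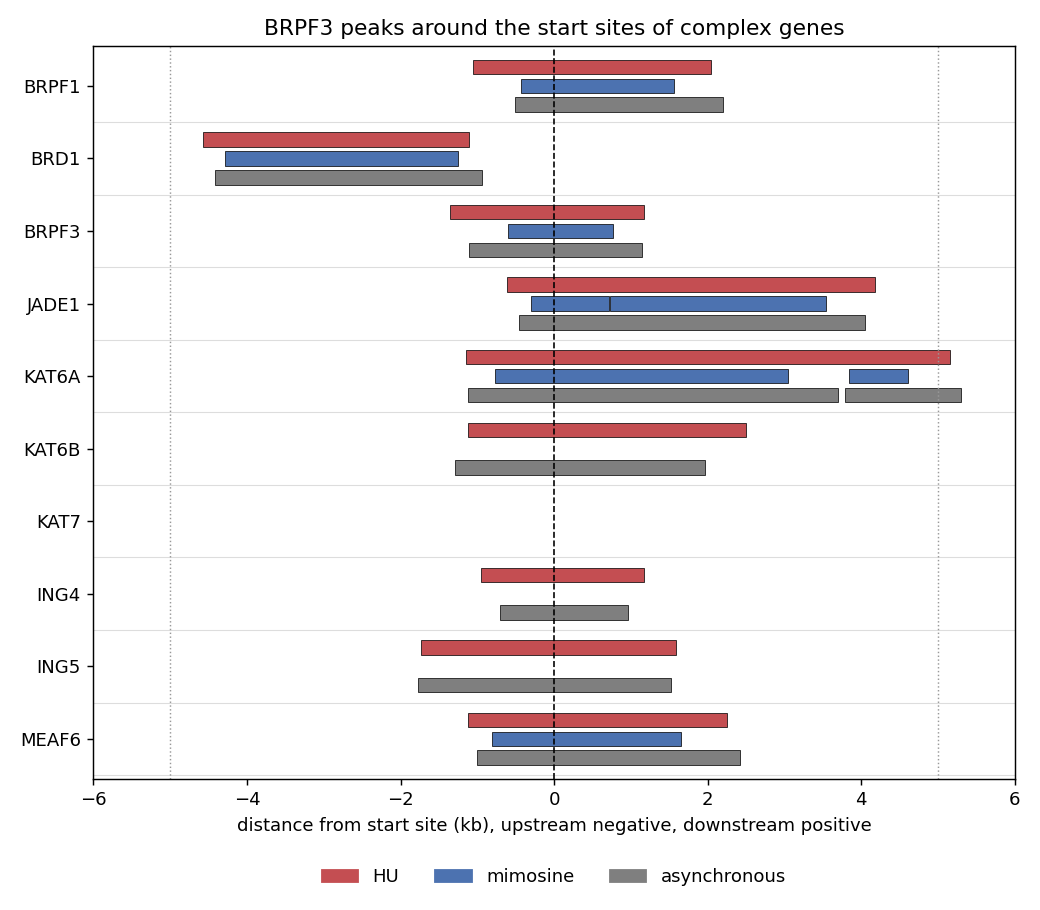
BRPF3 peaks drawn as bars by their distance in kb from the start site of each gene, with upstream to the left, and with HU, mimosine and asynchronous peaks from top to bottom in each row. The dashed line is the start site and the dotted lines mark 5 kb. Peaks of 8 genes lie across the start site, those of BRD1 lie wholly upstream of it, and KAT7 has none.

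The promoters of the 4 genes with a single start site in the RefSeq table are printed because they cover the range of outcomes, from peaks in all lists (BRPF3 and MEAF6) through no mimosine peak (ING4) to no peak (KAT7). Each runs 5′ to 3′ in the direction of its gene, from 250 bases before the start to 50 bases after it. The sequences are RefSeq's in build GRCh38.p14, whose positions were not converted to hg19. They lie at chr6:36196494-36196793 on the plus strand (BRPF3), chr1:37514717-37515016 on the minus strand (MEAF6), chr12:6663070-6663369 on the minus strand (ING4) and chr17:49788431-49788730 on the plus strand (KAT7). Capitals mark GGGCGG, the GC box core, and CCGGAAG, a core bound by ETS factors, on either strand.
BRPF3: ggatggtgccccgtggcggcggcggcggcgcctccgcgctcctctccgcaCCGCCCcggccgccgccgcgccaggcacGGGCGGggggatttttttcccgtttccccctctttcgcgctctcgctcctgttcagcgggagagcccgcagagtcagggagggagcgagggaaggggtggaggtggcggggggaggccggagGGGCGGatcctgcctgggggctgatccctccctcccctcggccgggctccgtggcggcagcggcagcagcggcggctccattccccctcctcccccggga
MEAF6: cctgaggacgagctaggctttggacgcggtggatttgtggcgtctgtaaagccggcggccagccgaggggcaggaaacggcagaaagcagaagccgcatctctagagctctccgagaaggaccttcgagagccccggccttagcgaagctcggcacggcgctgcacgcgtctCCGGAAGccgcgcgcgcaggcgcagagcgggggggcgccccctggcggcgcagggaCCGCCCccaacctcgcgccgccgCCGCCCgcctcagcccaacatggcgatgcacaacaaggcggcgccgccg
ING4: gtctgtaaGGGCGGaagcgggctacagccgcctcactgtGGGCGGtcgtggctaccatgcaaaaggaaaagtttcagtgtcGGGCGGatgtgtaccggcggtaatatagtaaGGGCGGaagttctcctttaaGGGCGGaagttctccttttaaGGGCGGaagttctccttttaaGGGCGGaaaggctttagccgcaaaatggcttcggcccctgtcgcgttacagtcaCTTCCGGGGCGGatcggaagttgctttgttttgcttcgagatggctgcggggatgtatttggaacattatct
KAT7: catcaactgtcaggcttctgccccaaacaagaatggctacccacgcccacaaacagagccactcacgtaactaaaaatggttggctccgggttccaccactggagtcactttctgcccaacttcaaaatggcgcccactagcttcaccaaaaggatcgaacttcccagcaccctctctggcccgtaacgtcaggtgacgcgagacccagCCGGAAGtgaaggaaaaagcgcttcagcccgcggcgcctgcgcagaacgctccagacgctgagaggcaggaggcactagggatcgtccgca

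The BRPF3 promoter was GC-rich, with 76.3% G and C and a ratio of observed to expected CpG of 0.802, and the MEAF6 promoter had 71.3% and 1.05. The ING4 promoter was lower in G and C, at 53.7%, but had a CpG ratio of 1.08, at percentile 96.4 of the 35116 promoters in the table. KAT7 was the least CpG-dense of these 4, with 57.7% G and C and a ratio of 0.781, which still exceeds the median of 0.579 over all promoters. The median share of G and C over all promoters was 58.7%. GGGCGG occurred 8 times in the ING4 promoter, 3 times in BRPF3, 2 times in MEAF6 and 0 times in KAT7. In ING4 the last of them overlaps CTTCCGG, the reverse strand of CCGGAAG, by 1 base. The KAT7 promoter thus had an ETS core, 41 bases before its start, and no GC box in this window.

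Among the 9 genes with promoter entries in RefSeq (19 entries in all, since 5 genes have several starts), GGGCGG was found for 8, all but KAT7, and it is present in 44.95% of all promoters. CCGGAAG was found for KAT7, ING5, ING4 and MEAF6, against 10.3% of all promoters. ATTGG, the CCAAT box read on the other strand, was found for ING5, JADE1 and KAT6B, against 34.6% of promoters, and CACGTG, the E-box, for JADE1, against 7.26%. TATAAA, TGACGTCA, TTTGGCGC and TTTCCCGC were found for 0 of the 9, and they occur in 11.5%, 1.85%, 0.652% and 1.63% of promoters. Both strands were searched. These matches describe letters in the window and not binding, and genes with several entries had more sequence to match.

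All 4 scaffold genes were held in each list, as were 71.5% of all merged regions, and BRD1 had the highest scores among them. These 4 genes are too few to set apart from that share. The deposited score rises as the caller's p-value falls and cannot be compared in size between libraries of unknown depth, so each is also given as a percentile, its rank from the lowest score of the same list in percent, with tied scores given their mean rank. At BRD1, a scaffold also called BRPF2, the peak scored 3100 in each list, a value that many top peaks share. Its percentiles were 96.1 in HU, 98.4 in mimosine and 96.0 in asynchronous cells. All 3 lists therefore put the BRD1 peak among their top-scoring sites.

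The BRD1 peaks were also the ones that did not reach the start site used. They covered chr22:50218807-50222270 in HU cells, chr22:50218949-50221982 in mimosine cells and chr22:50218637-50222121 in asynchronous cells (hg19). On the minus strand on which BRD1 lies, their near edges stood at -1107, -1249 and -937 bp from the start site used and their far edges at -4570, -4282 and -4421 bp, negative values being upstream. RefSeq lists 3 BRD1 starts spread over 2.52 kb, and which of them matches the hg19 site was not established. Whether the peaks cover another of these starts was not established either. Their promoter entries ranged from 56.0% to 76.0% in G and C and from 0.274 to 0.922 in the CpG ratio. The next nearest peak lay upstream, at 28.5 kb in HU, 28.6 kb in mimosine and 28.5 kb in asynchronous cells.

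BRPF1, the scaffold best known for its work with KAT6A and KAT6B, had a peak across its start in each list. The peak covered chr3:9772360-9775448 with a score of 1194 in HU cells, chr3:9772975-9774970 with 609 in mimosine cells and chr3:9772903-9775605 with 783 in asynchronous cells. These scores lay at percentiles 74.2, 71.7 and 60.8 of the HU, mimosine and asynchronous lists. The HU peak reached 1050 bp upstream of the start, against 435 bp in mimosine cells and 507 bp in asynchronous cells. The downstream reach was 2038 bp in HU, 1560 bp in mimosine and 2195 bp in asynchronous cells, so the HU peak was the longest upstream and the asynchronous peak the longest downstream.

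The gene of the mapped protein itself, BRPF3, held one of the weaker peaks. Its peak covered chr6:36163165-36165693 in HU cells with a score of 256, chr6:36163922-36165282 in mimosine cells with 126, and chr6:36163417-36165663 in asynchronous cells with 423. The percentiles were 31.3, 27.6 and 41.7 in HU, mimosine and asynchronous cells, the lowest in each condition among the 6 genes held in all lists. The widths of 2529, 1361 and 2247 bp lay at percentiles 39.9, 31.8 and 37.6 of the HU, mimosine and asynchronous lists. Around the start of BRPF3 the peaks were centred closely, with a reach of 1355 bp upstream and 1173 bp downstream in HU, 598 and 762 bp in mimosine, and 1103 and 1143 bp in asynchronous cells. The nearest other peak lay 64.0 kb away in HU, 64.5 kb in mimosine and 63.7 kb in asynchronous cells.

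JADE1, the JADE-type scaffold of KAT7 complexes, had a peak that ran mainly downstream. In HU cells 1 peak of 4791 bp scored 1475, and in asynchronous cells 1 peak of 4498 bp scored 2042. In mimosine cells the site was called as 2 peaks with 13 bp between them, a first of 1016 bp across the start with a score of 66.6 and a second of 2818 bp with 544. Downstream of the start the peaks ended at 4179 bp in HU, 3540 bp in mimosine and 4044 bp in asynchronous cells, and upstream they reached 611, 306 and 453 bp. RefSeq lists 5 JADE1 starts spread over 2.14 kb, with 61.3% to 81.7% G and C. JADE1 stood far from other sites, with the nearest outside peak 255 kb away in HU, 256 kb in mimosine and 256 kb in asynchronous cells. With peaks of a score of 100 or more only, the start of JADE1 lay outside every mimosine peak, and the remaining one began 723 bp downstream.

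**Figure D2:**
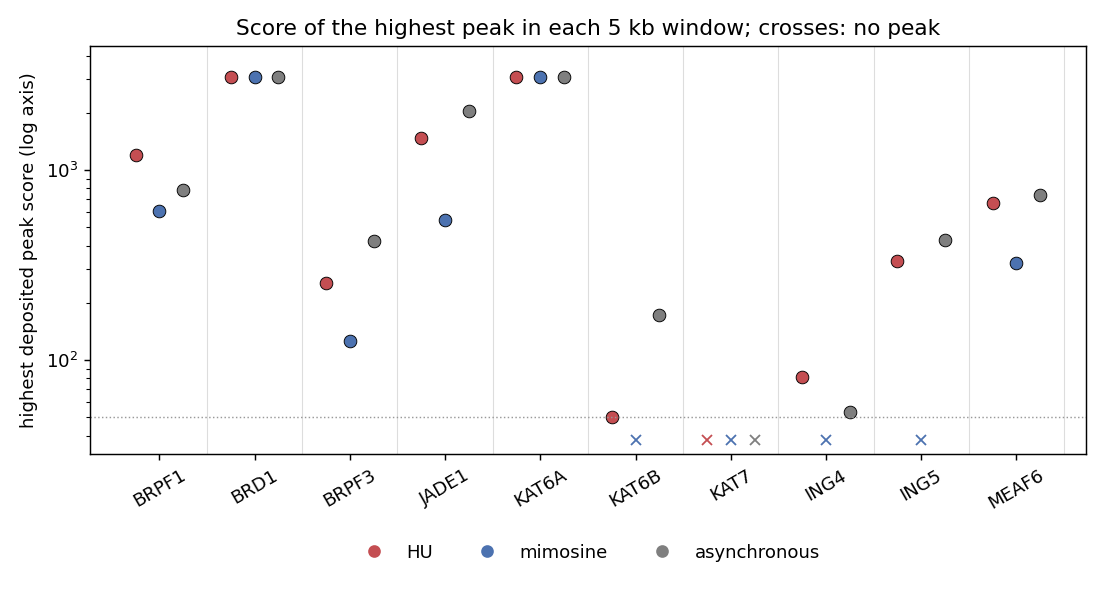
Deposited score of the highest peak within 5 kb of each start site on a log axis, with HU, mimosine and asynchronous cells from left to right for each gene. Crosses mark lists with no peak and the dotted line a score of 50, the lowest in the HU and asynchronous lists. BRD1 and KAT6A stand at 3100 in all lists, while the KAT6B score in HU cells (50.2) and the ING4 score in asynchronous cells (52.9) lie closest to the line.

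The catalytic genes spanned the whole range. KAT6A, the MOZ acetyltransferase first found in leukaemia translocations, had the widest sites of the 10 genes, and its highest peak scored 3100 in each list. In HU cells it was 1 peak of 6312 bp, at percentile 94.4 of widths in that list. In mimosine cells it was 2 peaks of 3824 and 775 bp separated by 792 bp, and in asynchronous cells 2 peaks of 4813 and 1515 bp separated by 94 bp. The smaller peaks had scores of only 54.4 in mimosine and 62.8 in asynchronous cells and were the ones farther downstream. The outer edges lay 1152 bp upstream and 5159 bp downstream in HU, 775 and 4615 bp in mimosine, and 1120 and 5301 bp in asynchronous cells. KAT6A and JADE1 were the 2 of 6 genes with several mimosine peaks, where 11.9% of regions in all lists had them, and KAT6A was the 1 of 6 with several asynchronous peaks, against 2.81%.

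KAT6B, the paralogue of KAT6A, ranked far lower than KAT6A in both lists that held it. Its HU peak, chr10:76584215-76587839, scored 50.2, against 172 for the asynchronous peak chr10:76584055-76587306, and the mimosine list held none. The HU score lay at percentile 0.0707, among the 10 lowest of 13431, while the asynchronous score lay at percentile 22.0. The 2 peaks were similar in extent, 3625 bp in HU and 3252 bp in asynchronous cells, and the HU width stood at percentile 67.6 of its list. The 1985 HU peaks that scored below 100 had a median width of 1151 bp, and 10 of them (0.504%), the KAT6B peak included, were at least as wide as the KAT6B peak. That comparison was chosen after the KAT6B values were seen. The nearest other peak lay 285 kb from the KAT6B start in HU, 286 kb in mimosine and 285 kb in asynchronous cells.

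KAT7, the catalytic partner with which BRPF3 is best known to work, had no peak within 5 kb of its start in HU, mimosine or asynchronous cells. The nearest HU peak lay 24.2 kb upstream with a score of 50.5, the nearest mimosine peak 79.9 kb upstream with a score of 124, and the nearest asynchronous peak 24.2 kb upstream with a score of 92.1. FAM117A is the neighbouring gene on that side of KAT7 in the RefSeq table. The number of reads is unknown, so a site at KAT7 below the caller's threshold was not detectable here.

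Of the small subunits, MEAF6, which is shared by these complexes, had a mid-ranking peak in every list. The peak covered chr1:37978121-37981496 in HU, chr1:37978728-37981183 in mimosine and chr1:37977949-37981375 in asynchronous cells, with scores of 671, 326 and 737. Their percentiles, 56.5 in HU, 54.5 in mimosine and 58.9 in asynchronous cells, were close to each other. The peak ran farther into the gene than upstream, by 2254 bp against 1121 bp in HU, 1647 bp against 808 bp in mimosine and 2426 bp against 1000 bp in asynchronous cells.

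ING5, a PHD-finger protein that recognises methylated histone tails, had peaks of similar extent in HU and asynchronous cells. These were chr2:242639714-242643034 with a score of 333 in HU cells and chr2:242639683-242642974 with 427 in asynchronous cells, at percentiles 37.2 and 42.0. Their edges differed by 31 bp upstream, where the asynchronous peak was longer, and by 60 bp downstream, where the HU peak was. No mimosine peak touched the window, although one lay 13.3 kb upstream with a score of 759, beside HU and asynchronous peaks there with scores of 2055 and 2446. DTYMK is the neighbour of ING5 on that side. RefSeq lists 2 ING5 starts 15.0 kb apart, and the rule gives only 1 hg19 site, so peaks at the other start would not have been counted. Whether the peak 13.3 kb upstream, present in all lists, lies at that other start was not established.

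ING4, the paralogous reader, had the weakest asynchronous peak of the 9. The peak covered chr12:6771137-6773263 with a score of 81.6 in HU cells and chr12:6771342-6773013 with 52.9 in asynchronous cells. The percentiles were 11.2 in HU and 1.44 in asynchronous cells, and the widths 2127 bp and 1672 bp. A stronger peak in all lists lay upstream, at 23.0 kb in HU, 23.7 kb in mimosine and 22.9 kb in asynchronous cells, with scores of 1618, 451 and 1025. ZNF384 is the upstream neighbour of ING4.

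The 3 genes without a mimosine peak differed in how unusual this was for their score. The HU and asynchronous lists were each cut into 10 score groups of near-equal size, and the share of peaks overlapping a mimosine peak was counted in each group. In the groups that hold ING4, 14.9% of HU peaks and 8.36% of asynchronous peaks had a mimosine partner. For KAT6B the shares were 4.84% of the HU group and 60.6% of the asynchronous group. For ING5 they were 86.1% of 1342 HU peaks (95% interval 84.1 to 87.9%, exact) and 95.7% of 1316 asynchronous peaks (94.5 to 96.8%). Most peaks scoring like that of ING4 thus had no mimosine partner, whereas most peaks scoring like that of ING5 had one. The intervals cover counting error only.

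ING5 and BRPF3 fell in the same score group of both lists and differed in this respect. The asynchronous scores were 427 for ING5 and 423 for BRPF3, and the HU scores 333 and 256. The ING5 peak was also the wider, at 3321 bp against 2529 bp for BRPF3 in HU cells and 3292 bp against 2247 bp in asynchronous cells. Even so, BRPF3 had a mimosine peak within 5 kb of its start and ING5 had none within 5 kb of the site used. The other ING5 start in RefSeq was not examined. Among the 2060 regions of HU and asynchronous cells without a mimosine peak, the ING5 region lay at percentile 96.2 of HU scores, 97.2 of asynchronous scores and 95.4 of widths. The KAT6B region lay at percentile 97.3 of widths in that class, but at 0.0728 of HU scores and 70.6 of asynchronous scores, and the ING4 region at 69.2 of widths, 26.3 of HU scores and 3.30 of asynchronous scores.

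**Figure D3:**
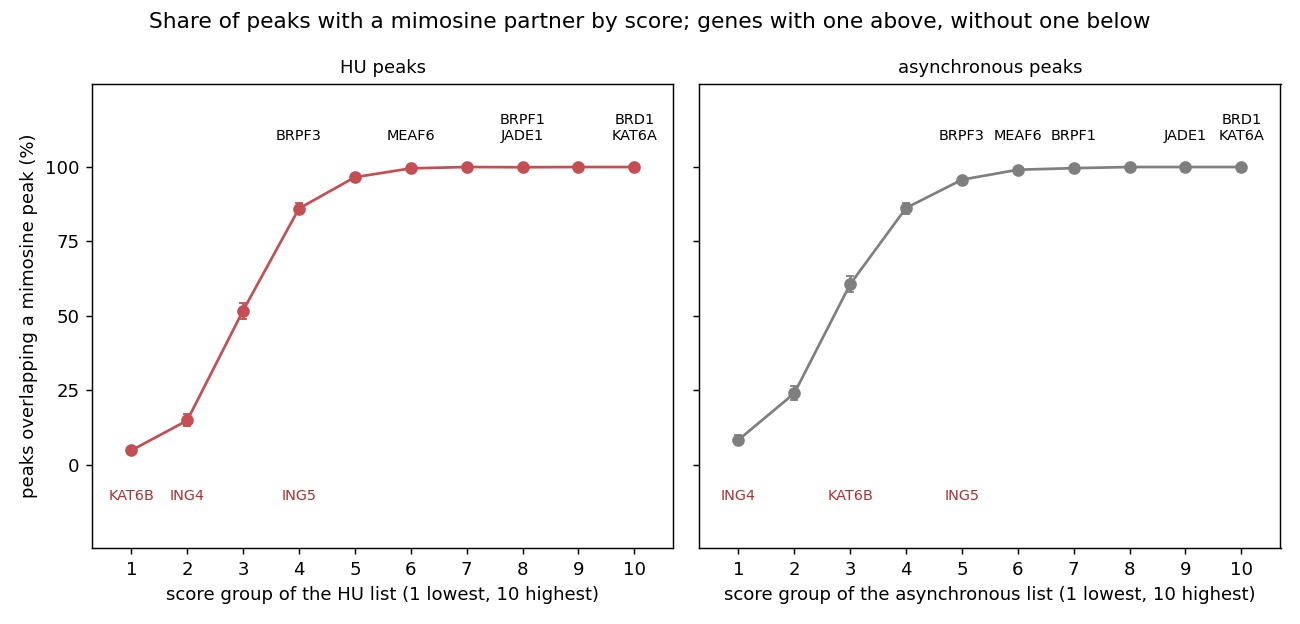
Percentage of HU peaks (left) and asynchronous peaks (right) that overlap a mimosine peak, by score group of the list from the lowest to the highest, with exact 95% intervals. Gene names above the curve had a mimosine peak and those below it had none. ING5 stands in groups where 86.1% and 95.7% of peaks had a partner.

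Mimosine peaks were narrower than asynchronous peaks at 6 of the 6 genes that had both, as they were at 98.2% of the 8653 merged regions to which every list gave a single peak. The ratio of mimosine to asynchronous width, taking the widest peak near each gene, was 0.606 at BRPF3, 0.627 at JADE1, 0.717 at MEAF6, 0.738 at BRPF1, 0.795 at KAT6A and 0.871 at BRD1. Their median of 0.728 was close to the 0.694 of all such regions. BRPF3 lay at percentile 31.3 of the regions and BRD1 at 87.8, so the BRD1 peak kept most of its width (3034 bp in mimosine cells and 3485 bp in asynchronous cells). JADE1 and KAT6A were split in mimosine cells, and with their peaks summed the ratios were 0.852 and 0.727. The outer edges drew in on both sides at all 6 genes, by 72 bp (BRPF1) to 505 bp (BRPF3) upstream and by 312 bp (BRD1) to 779 bp (MEAF6) downstream. Over the whole lists the median width was 2898 bp in HU, 1855 bp in mimosine and 2644 bp in asynchronous cells. The part of library depth in this was not tested.

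HU peaks were wider than mimosine peaks at the same 6 genes, while 99.9% of all such regions had the narrower peak in mimosine cells. The HU to mimosine width ratio ranged from 1.14 at BRD1 to 1.86 at BRPF3, with a median of 1.60 against 1.59 over those regions. The BRD1 ratio stood at percentile 2.35 of the regions, which places it among the sites that differed least in width between the HU and mimosine lists. BRPF3 stood at percentile 71.3.

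HU peaks were wider than asynchronous peaks at 7 of 9 genes, against 75.1% of the 8653 regions with a single peak in every list. ING4, ING5 and KAT6B, without a mimosine peak, and JADE1 and KAT6A, with split peaks, lie outside that set. The ratio was 1.31 at KAT6A, 1.27 at ING4, 1.14 at BRPF1, 1.13 at BRPF3, 1.11 at KAT6B, 1.07 at JADE1 and 1.01 at ING5, and it was 0.994 at BRD1 and 0.985 at MEAF6. The median of 1.11 was near the 1.09 of those regions. For KAT6A the ratio rests on the split of its asynchronous peak, and with peaks summed it was 0.997. At ING5, BRD1 and MEAF6 the widths differed by 0.881%, 0.603% and 1.49%, and without replicates no spread exists against which to judge that.

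**Figure D4:**
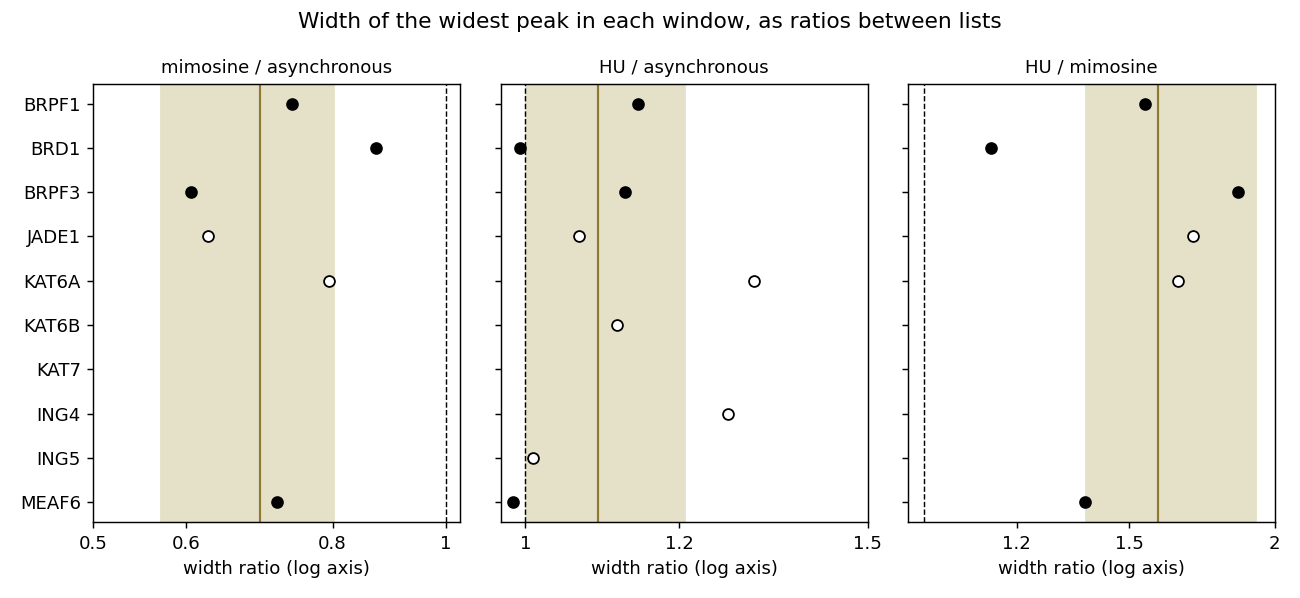
Ratio of peak widths on a log axis for mimosine over asynchronous, HU over asynchronous and HU over mimosine cells. Filled points are genes with exactly 1 peak per list, open points other genes, the band is the interquartile range and the line the median of the 8653 regions with 1 peak per list. BRD1 lies nearest to a ratio of 1, drawn dashed, in the comparisons with mimosine cells.

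By the highest peak per gene, the median score percentile of these genes lay above the middle of each list. The genes are too few to set these medians apart from the middle. In both the HU and asynchronous lists BRPF3, ING5, ING4 and KAT6B ranked below the middle, and BRD1, KAT6A, JADE1, BRPF1 and MEAF6 above it. The median percentile of the highest peak per gene was 56.5 in HU cells over 9 genes, 70.1 in mimosine cells over 6 genes and 58.9 in asynchronous cells over 9 genes, and the middle of any whole list is 50 by definition. A whole list counts every peak, whereas the mimosine and asynchronous medians leave out the lower peaks of split sites. Those stood at percentile 5.18 (KAT6A, asynchronous), 3.08 (KAT6A, mimosine) and 9.54 (JADE1, mimosine), and medians that include them were not calculated. In HU cells each of the 9 genes had a single peak, so none was left out there. The mimosine value leaves out the 3 genes without a peak, which ranked below the middle of the other lists, so the medians are not comparable. Within each list the order began with BRD1 and KAT6A, both at 3100. It continued with JADE1, BRPF1, MEAF6, ING5, BRPF3, ING4 and KAT6B in HU cells and with BRPF1, JADE1, MEAF6 and BRPF3 in mimosine cells. In asynchronous cells it continued with JADE1, BRPF1, MEAF6, ING5, BRPF3, KAT6B and ING4. Neighbours in these orders could not be separated by a replicate spread.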

How the data were processed

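BRPF3 ChIP-seq peaks of 3 RKO libraries were used, each called against the same IgG library per the names of the deposited lists. The submitters' processing notes name Bowtie 0.12.8, SAMtools, MACS 1.4.0, bedtools, hg18 and hg19, without order or settings. Each deposited list gives the position of every peak and a score, which by its form and its lowest value of 50 is 10 times the negative base-10 logarithm of the caller's p-value. The scores are the authors' own and were used to rank or filter peaks within a list. Positions are given as hg19 and counted from 1. Reads were not analysed here, so depth is unknown.

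Peaks overlapping the window of 5 kb to each side of a start site by at least 1 bp were taken. The start sites came with the list of genes and were not checked against an annotation of hg19, since the RefSeq tables used (GRCh38.p14) are of another build. They gave gene names, neighbours, strands and promoters. All 10 genes matched the gene table, and 9 the promoter table. The promoter and strand of KAT6A were not taken from it, and its minus strand is textbook knowledge. The genes and lists were chosen with earlier results of these data known. All genes were named by rule. Peaks overlapping by 1 bp across lists were merged into regions. Percentiles use the mean rank of ties. Tables were handled in pandas 2.3.3 and NumPy 2.4.6 under Python 3.11.15, intervals came from SciPy 1.17.1, and matplotlib 3.10.9 drew the plots. The overlap and width code was tested on an altered copy of the asynchronous list, with peaks removed or narrowed at random. Alternative windows, score filters, merging and ranks are given at the end.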

Additional observations from a re-analysis of the deposited data

How the results depend on the processing

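All alternatives were planned. Windows of 2 kb or 10 kb and merging of peaks within 1 kb gave the same genes in every list. Requiring a peak across the start removed BRD1 from each list, and a score of 100 or more removed ING4 and KAT6B from the HU list and ING4 from the asynchronous list. With peak lengths summed, the median width ratios of the genes were 0.733 for mimosine over asynchronous, 1.07 for HU over asynchronous and 1.37 for HU over mimosine, and with peaks within 1 kb merged 0.789, 1.07 and 1.31. KAT6A turned round in these settings, its HU over asynchronous ratio becoming 0.997 and 0.983. Summing counts both of its asynchronous peaks, and merging joins them. When peaks scoring under 100 were dropped, the genes had a median of 1.07 for HU over asynchronous. Over all regions with a single peak in every list, the medians were then 0.710, 1.09 and 1.55. Ranked among regions in all 3 lists, the median percentiles were 69.4 in HU, 69.8 in mimosine and 66.6 in asynchronous cells, and among peaks scoring 100 or more 69.8, 62.0 and 53.8. By construction these use fewer peaks, and in HU and asynchronous cells fewer genes. The median distance to the nearest outside peak was 26.3 kb in HU, 49.6 kb in mimosine and 26.3 kb in asynchronous cells, and became 49.0, 50.8 and 48.9 kb at a score of 100 or more. Over promoter entries the median share of G and C was 66.7% and the CpG ratio 0.821, and in the 250 bases before the start 64.8% and 0.807. No paired analysis was possible because each condition had 1 library. Depth limits what a missing peak means.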
